A study of Mus musculus with 6 samples.

Results

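The genes described here encode the SR proteins, the hnRNP proteins and the factors that act on or beside them in choosing splice sites, measured in LSK cells (Lin-Sca+Kit+ bone marrow cells, the population that holds the hematopoietic stem cells and the earliest progenitors). Members were taken by gene symbol from the deposited table of loci: every symbol that begins with Srsf or Sfrs and a number, every symbol that begins with Hnrnp or Hnrp, and Clk1 to Clk4, Srpk1, Srpk2, Tra2a, Tra2b, Sfpq and Nono. The rule matched 49 of 53445 loci, and keeping the longest locus of each repeated symbol left 45. These were 13 SR proteins, 2 Tra2 proteins, 6 SR protein kinases, 22 hnRNP proteins, and Sfpq and Nono. The classes follow the listed symbols. The loci listed as Sfrs18 and Srsf12 are counted as SR proteins here, although their current names, Pnisr and Srek1, lie outside the Srsf series. Of the hnRNP loci 2 are combined loci (Hnrnpm/March2 and Hnrnpu/AI503316) that share reads with Hnrnpm and Hnrnpu, so 43 single genes remain. All 45 passed the filter on low counts, which kept 22032 loci in all.

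Poly(A) RNA-Seq was performed on LSK cells sorted from female mice of about 12 weeks on a C57BL/6 background, 3 with the genotype OgaVav-Cre and 3 wildtype, with 1 library per mouse. OgaVav-Cre mice carry floxed alleles of Oga, which encodes the enzyme that removes O-GlcNAc from nuclear and cytoplasmic proteins, together with a Cre transgene driven by the Vav promoter. This Cre is active throughout the blood lineage, so the deletion precedes the sort and is not particular to LSK cells. The question addressed here is whether transcript levels of the splicing regulators differ between the genotypes.

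SR proteins bind exonic sequences through RNA recognition motifs and recruit the spliceosome through tails rich in arginine and serine. CLK and SRPK kinases phosphorylate these tails, while hnRNP proteins often oppose SR proteins at nearby sites. Many of these genes regulate themselves through retained introns or through exons that send the transcript to nonsense-mediated decay, and O-GlcNAc is known to affect the retention of introns such as those of its own cycling enzymes.

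The libraries held 19318056 to 27064389 counted reads. The targeted gene, listed under its older symbol Mgea5, had 4.61, 4.31 and 4.01 CPM (counts per 1000000 reads, with libraries scaled by the TMM method) in OgaVav-Cre mice 1 to 3 and 148, 154 and 116 in wildtype mice 1 to 3. Ogt, which encodes the enzyme that adds O-GlcNAc, had a log2 fold change (OgaVav-Cre over wildtype) of -0.70 ± 0.20 (SE, edgeR quasi-likelihood test, Benjamini-Hochberg adjusted p = 0.412). Kit, Ly6a (Sca-1) and Cd34 were present in every library, and none of the 8 LSK markers reached an unadjusted p of 0.05. Their levels were not even, with 5 higher and 3 lower in OgaVav-Cre. Ly6a came nearest to that cutoff, at 218, 114 and 100 CPM in the OgaVav-Cre mice and 48.5, 122 and 42.3 CPM in the wildtype mice (log2 fold change 1.03 ± 0.46, SE, edgeR, unadjusted p = 0.0558). The 8 markers summed to 966 to 1838 CPM in OgaVav-Cre and 1198 to 1874 CPM in wildtype. Plasma cell transcripts set the libraries apart: the immunoglobulin loci Ighm, Igkc and Igj took 9.88%, 4.14% and 1.17% of the counts in OgaVav-Cre mice 1 to 3 and 2.05%, 5.48% and 1.36% in wildtype mice 1 to 3. The 12 plasma cell symbols matched 11 loci, as a gene was listed under both its older and its current symbol. All 11 had a higher mean in OgaVav-Cre (median log2 fold change 0.68, none at an unadjusted p below 0.05). Their summed level was 12187 to 112982 CPM in OgaVav-Cre and 12996 to 56167 CPM in wildtype. Of the 15 markers of lineage-positive cells 12 had a higher mean in OgaVav-Cre (median log2 fold change 0.44), with Cd4 alone at an unadjusted p below 0.05. The list summed to 1453, 769 and 3510 CPM in OgaVav-Cre mice 1 to 3 and 1579, 970 and 1587 CPM in wildtype mice 1 to 3. OgaVav-Cre 3 was thus the highest library and OgaVav-Cre 2 the lowest. Cd4 had 20.8, 13.7 and 72.7 CPM in the OgaVav-Cre mice and 17.6, 10.7 and 12.1 CPM in the wildtype mice. No marker of either list was at or under a floor of 3 reads in every library.

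The members' median difference between the genotypes was close to 0. The members with the smallest p were CLK kinases and loci listed under SR protein symbols, on the lower side in OgaVav-Cre. The smallest of all was that of Sfrs18, whose current name is Pnisr. No member passed the cutoffs of an adjusted p of 0.05 and a log2 fold change beyond 1 in the edgeR fit, which 7 of the 22032 loci (0.0318%) passed. The smallest adjusted p among the members was 0.337. At an unadjusted p of 0.05, 8 members (17.8%) had lower and 2 (4.44%) had higher levels in OgaVav-Cre, beside 6.27% and 4.38% of all loci tested. Among the 5182 loci expressed at or above the 5th percentile of the members' mean CPM, which include 42 members, these shares were 4.69% lower and 7.49% higher. In 9 members every OgaVav-Cre library lay below every wildtype library, beside 9.97% of all loci, and in 4 every OgaVav-Cre library lay above, beside 7.5%. Among the 5182 loci the shares were 7.93% below and 11.3% above. DESeq2, run as an alternative, called 2 members at an adjusted p of 0.05, Sfrs18 (adjusted p = 0.00371) and Clk1 (adjusted p = 0.0270), beside 1.07% of the loci to which it gave an adjusted p. The median log2 fold change was -0.03 over the 45 members and 0.00 over all loci.

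The count of 10 members at an unadjusted p below 0.05 depended on single mice. It was 5 without OgaVav-Cre 1, 4 without OgaVav-Cre 2 and 10 without OgaVav-Cre 3, beside 6.51%, 7.67% and 14.3% of all loci in the same fits. It was 17 without wildtype 1, 3 without wildtype 2 and 5 without wildtype 3, beside 14.5%, 7.51% and 5.39% of all loci. The share of all loci thus moved with the mouse left out as well, and the counts of 3 and 4 members are close to it. Without OgaVav-Cre 1 and wildtype 2, the libraries with the highest immunoglobulin share of each genotype, 2 members remained below 0.05, Sfrs18 and Clk2, beside 4.22% of all loci. With the immunoglobulin share as a covariate 9 were below 0.05, beside 9.08% of all loci. Since this is bulk RNA, fewer cells of a type and less RNA per cell cannot be told apart for any of the values that follow.

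**Figure D1:**
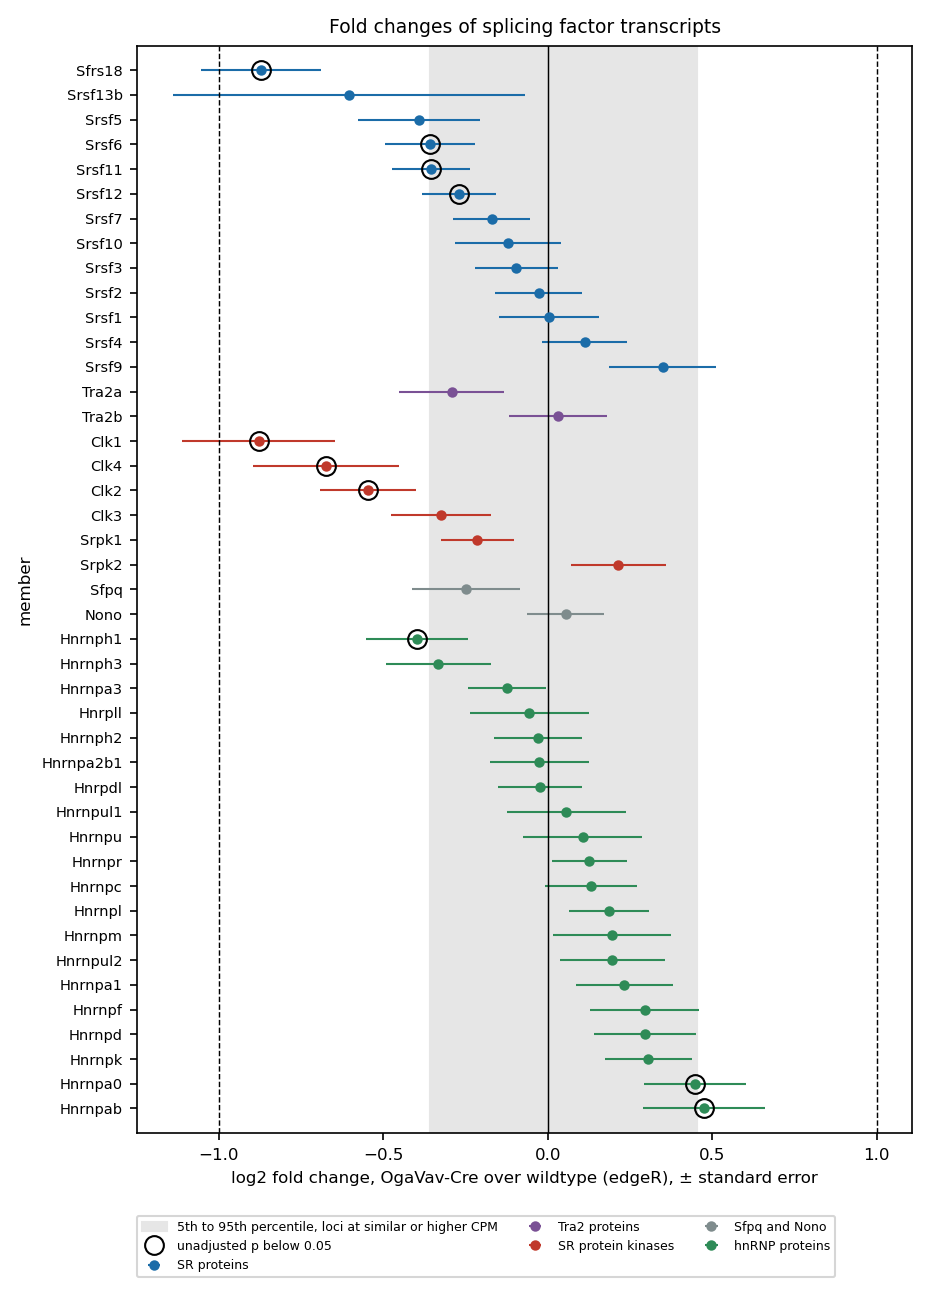
Log2 fold change (OgaVav-Cre over wildtype, edgeR, bars show the standard error) of the 43 single-gene members, ordered within each class, where rings mark an unadjusted p below 0.05, dashed lines a log2 fold change of 1 in either direction, and the gray band the 5th to 95th percentile (-0.36 to 0.45) of the 5182 loci at a similar or higher CPM. Clk1, Clk4, Clk2, Sfrs18 and Srsf13b lie well to the left of the band, Srsf13b with the widest bar. Srsf5 and Hnrnph1 lie just beyond its left edge and Hnrnpab just beyond its right edge. SR proteins lie mostly left of 0 and hnRNP proteins mostly right of it, and no point reaches a dashed line.

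The SR protein kinases had the most negative median of the classes, -0.44, with 5 of 6 lower in OgaVav-Cre. At an unadjusted p below 0.05, 3 of 6 (Clk1, Clk2 and Clk4) were lower, beside 6.27% of all loci tested. CLK kinases are nuclear and act on SR proteins in speckles, where they free them for splicing. CLK transcripts are known to be held in the nucleus with introns retained on either side of an alternative exon, whose skipping leaves a truncated kinase. GENCODE annotates this arrangement for Clk1, Clk2 and Clk4, so the exon flanked by annotated retained introns is shown for these kinases, the CLK members on which the results turn. The exon is in capitals, preceded by 20 and followed by 10 intron bases in lower case, read on the coding strand 5′ to 3′ from the mouse genome build mm9.
Clk1, chr1:58476955-58477075, minus strand: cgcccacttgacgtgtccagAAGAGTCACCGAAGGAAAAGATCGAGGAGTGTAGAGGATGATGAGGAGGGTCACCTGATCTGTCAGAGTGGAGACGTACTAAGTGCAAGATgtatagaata
Clk4, chr11:51086560-51086680, plus strand: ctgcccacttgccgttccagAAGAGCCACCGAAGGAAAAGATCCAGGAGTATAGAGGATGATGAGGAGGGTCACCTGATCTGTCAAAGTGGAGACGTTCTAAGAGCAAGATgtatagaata
Clk2, chr3:88973517-88973634, plus strand: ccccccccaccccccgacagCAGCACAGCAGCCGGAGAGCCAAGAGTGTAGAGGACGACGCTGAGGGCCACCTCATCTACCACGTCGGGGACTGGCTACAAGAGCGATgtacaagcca
The exon spans 91 bases in Clk1 and Clk4 and 88 in Clk2. In all 3 genes its length leaves a remainder of 1 on division by 3, so skipping it shifts the reading frame. Where several short exons of Clk2 or Clk4 met the description, the exon closest in sequence to that of Clk1 was taken. The identities below describe the chosen exons and are no separate result. The exons of Clk1 and Clk4 are identical at 85 of 91 bases (93.4%), those of Clk1 and Clk2 at 63 of 95 aligned columns (66.3%). The longest run shared by the Clk1 and Clk4 exons is 34 bases, shorter than the 50-base reads. The flanking introns measure 387 and 871 bases in Clk1, 1055 and 391 in Clk4, and 691 and 346 in Clk2, in the order of the coordinates. The deposited counts are totals per locus, so neither skipping of this exon nor retention of these introns was measured.

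Clk1 had 197, 156 and 258 CPM in OgaVav-Cre mice 1 to 3 and 284, 415 and 426 CPM in wildtype mice 1 to 3. All OgaVav-Cre libraries were below all wildtype libraries, with OgaVav-Cre 3 and wildtype 1 nearest to each other. The mean in OgaVav-Cre was 54.4% of wildtype, a log2 fold change of -0.88 ± 0.23 (SE), the most negative among the members (edgeR, unadjusted p = 0.00565, adjusted p = 0.401). Clk1 was also the member that varied most within a genotype (SD 0.346 on the log2 scale). Leaving out any 1 of the 6 mice kept it below an unadjusted 0.05, with log2 fold changes from -1.08 to -0.72. Leaving out both libraries highest in immunoglobulin did not, with a log2 fold change of -0.77.

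Clk4, the closest relative of Clk1, had 82.5, 67.0 and 116 CPM in the OgaVav-Cre mice and 114, 152 and 158 CPM in the wildtype mice. OgaVav-Cre 3 was just above wildtype 1, so the genotypes overlapped. Its log2 fold change was -0.67 ± 0.22 (SE, edgeR, unadjusted p = 0.0171, adjusted p = 0.415), and 2 of the 6 fits without 1 mouse stayed below 0.05. Clk2 had 52.6, 41.1 and 52.7 CPM in the OgaVav-Cre mice and 62.6, 74.4 and 77.0 CPM in the wildtype mice. The genotypes did not overlap, and OgaVav-Cre 2 was lowest here as for Clk1 and Clk4. Clk2 averaged 68.4% of wildtype (log2 fold change -0.55 ± 0.15, SE, edgeR, unadjusted p = 0.00598, adjusted p = 0.403) and stayed below an unadjusted 0.05 in all 6 fits without 1 mouse. The Clk2 and Clk4 loci each overlap a locus on the opposite strand, as do 20 of the 45 members, and the counting is not stated to use strand.

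Clk3, whose transcript is best known from testis, had 67.8, 59.7 and 74.3 CPM in the OgaVav-Cre mice and 69.2, 92.3 and 91.5 CPM in the wildtype mice. The genotypes overlapped, with a log2 fold change of -0.33 ± 0.15 (SE, edgeR, unadjusted p = 0.0656, adjusted p = 0.492). Srpk1, the mainly cytoplasmic kinase that primes SR proteins for import into the nucleus, was the least variable member (SD 0.0693). It had 145, 128 and 136 CPM in the OgaVav-Cre mice and 158, 154 and 163 CPM in the wildtype mice, without overlap, yet a log2 fold change of only -0.21 ± 0.11 (SE, edgeR, unadjusted p = 0.0919, adjusted p = 0.525). Srpk2, its paralog, was the single kinase with the higher mean in OgaVav-Cre, at 147, 141 and 163 CPM against 121, 116 and 153 CPM in wildtype. Its genotypes overlapped, and its log2 fold change was 0.21 ± 0.14 (SE, edgeR, unadjusted p = 0.177).

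**Figure D2:**
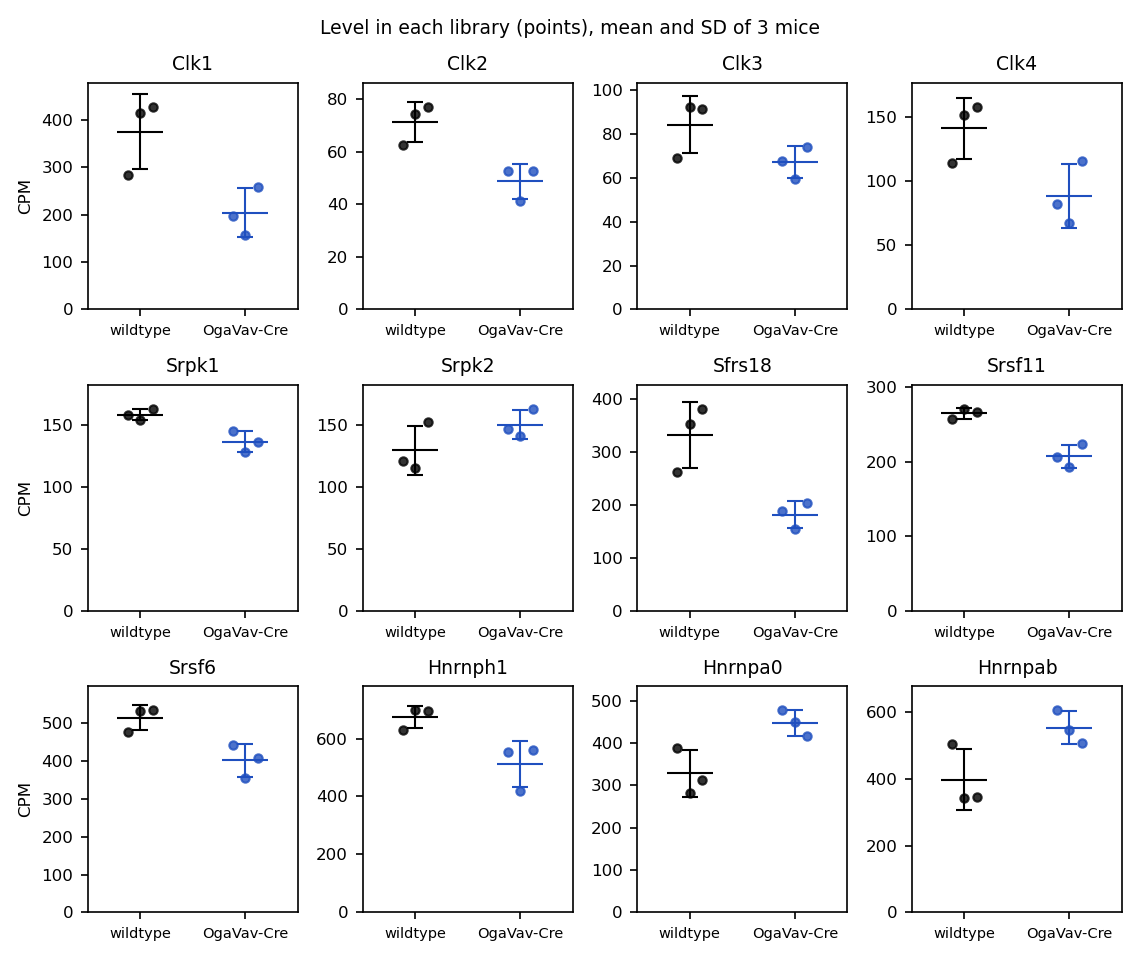
CPM (vertical axis, from 0) in each library of the 6 SR protein kinases and 6 further members, with wildtype in black and OgaVav-Cre in blue, points for the libraries in replicate order, and a horizontal line with bars for the mean and SD of 3 mice. The 3 OgaVav-Cre points of Clk1, Clk2, Srpk1, Sfrs18, Srsf11, Srsf6 and Hnrnph1 lie below all wildtype points, those of Hnrnpa0 and Hnrnpab lie above, and Clk3, Clk4 and Srpk2 overlap.

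Of the 13 SR proteins, 10 had a lower mean in OgaVav-Cre and 3 a higher one, with a median log2 fold change of -0.17. At an unadjusted p of 0.05, 4 were lower (Sfrs18, Srsf11, Srsf6 and Srsf12) and 0 higher in edgeR, and 0 passed the adjusted cutoff. Over all loci tested 6.27% were lower and 4.38% higher. Of these 4, Sfrs18 and Srsf12 belong to the class by their listed symbols only. DESeq2 called Sfrs18 alone among them after adjustment. The largest difference was that of Sfrs18, now named Pnisr, a nuclear speckle protein with an arginine- and serine-rich region that interacts with pinin. Sfrs18 had 188, 154 and 203 CPM in OgaVav-Cre mice 1 to 3 and 262, 353 and 381 CPM in wildtype mice 1 to 3. The genotypes did not overlap, and wildtype 1 was again the lowest wildtype library. The OgaVav-Cre mean was 54.7% of wildtype (log2 fold change -0.87 ± 0.18, SE, edgeR, unadjusted p = 0.00154, adjusted p = 0.337). In the 6 fits without 1 mouse the log2 fold change ranged from -1.01 to -0.76, each at an unadjusted p below 0.05, with adjusted p from 0.189 to 0.862. It was -0.85 without the pair of libraries highest in immunoglobulin. The locus overlaps 2 other loci, 1 of them on the opposite strand.

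Srsf11, which binds the U2AF factor near 3′ splice sites, had 206, 193 and 223 CPM in the OgaVav-Cre mice and 257, 271 and 267 CPM in the wildtype mice. The genotypes did not overlap, and the wildtype libraries lay close together. Its log2 fold change was -0.36 ± 0.12 (SE, edgeR, unadjusted p = 0.0178, adjusted p = 0.416). Srsf6, an SR protein with a pair of RNA recognition motifs, had 443, 355 and 407 CPM in the OgaVav-Cre mice and 477, 532 and 534 CPM in the wildtype mice. There was again no overlap (log2 fold change -0.36 ± 0.14, SE, edgeR, unadjusted p = 0.0324, adjusted p = 0.445). The locus listed as Srsf12, which corresponds to the gene now named Srek1, had 96.5, 85.7 and 88.1 CPM in the OgaVav-Cre mice and 102, 109 and 115 CPM in the wildtype mice. Its levels did not overlap either, with a smaller log2 fold change of -0.27 ± 0.11 (SE, edgeR, unadjusted p = 0.0426, adjusted p = 0.460). In the fits without 1 mouse an unadjusted p below 0.05 was kept in 3 of 6 for Srsf11, 2 of 6 for Srsf6 and 1 of 6 for Srsf12.

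The remaining SR proteins did not reach an unadjusted 0.05. Srsf7, an SR protein with a zinc knuckle, was the fifth without overlap between the genotypes, at 274 to 297 CPM in OgaVav-Cre and 301 to 334 CPM in wildtype, with a log2 fold change of -0.17. Srsf5 had a log2 fold change of -0.39 ± 0.19 (SE, edgeR, unadjusted p = 0.0687), and its genotypes overlapped. Srsf10, Srsf3 and Srsf2 were between -0.12 and -0.03, Srsf1 was at 0.00 and Srsf4 at 0.11. Srsf9 was the most positive SR protein, at 0.35 ± 0.16 (SE, edgeR, unadjusted p = 0.0648), with 43.3 to 54.7 CPM in OgaVav-Cre and 31.3 to 43.5 CPM in wildtype. Its groups overlapped by a margin of less than 1 CPM. Per length, in the authors' RPKM (reads scaled to locus length and library size), the class spanned from Srsf2, which encodes SC35, at 152 ± 13.7 in OgaVav-Cre and 163 ± 13.6 in wildtype (SD, n = 3), down to Srsf13b at 0.122 ± 0.0451 and 0.195 ± 0.0753. Srsf13b, whose current name is Srsf12, had 9 to 19 reads per library, so its log2 fold change of -0.61 ± 0.54 (SE) carries little precision.

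**Figure D3:**
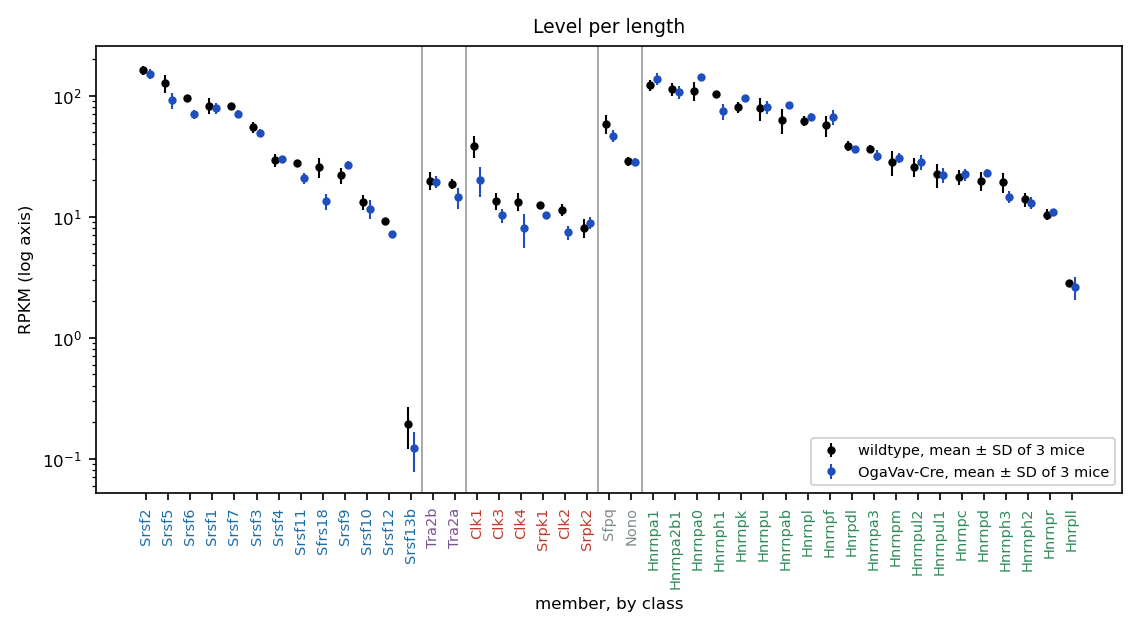
Level per length (RPKM of the authors, log axis) of the 43 single-gene members by class, with points and bars for the mean and SD of 3 mice per genotype. Srsf2 and Hnrnpa1 lead their classes in wildtype, Srsf13b lies far below all other members, and the genotypes are clearly separated for Clk1 and Sfrs18.

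The Tra2 proteins, SR-related activators of exons with GAA-rich enhancers, had log2 fold changes of opposite sign, neither at an unadjusted p below 0.05. Tra2a had 122, 95.6 and 138 CPM in the OgaVav-Cre mice and 156, 134 and 146 CPM in the wildtype mice, with OgaVav-Cre 3 inside the wildtype range. Its log2 fold change was -0.29 ± 0.16 (SE, edgeR, unadjusted p = 0.104). Tra2b had 199, 211 and 222 CPM in the OgaVav-Cre mice and 246, 189 and 184 CPM in the wildtype mice, so that the OgaVav-Cre values lay within the wildtype range (log2 fold change 0.03 ± 0.15, SE). Tra2b was negative in both scalings by RPKM, at -0.03 and -0.02. Sfpq and Nono form paraspeckle heterodimers and take part in splicing and transcription. Sfpq had 586, 495 and 609 CPM in the OgaVav-Cre mice and 717, 550 and 740 CPM in the wildtype mice, with overlap (log2 fold change -0.25 ± 0.16, SE, edgeR, unadjusted p = 0.170). Nono had 165, 173 and 164 CPM in the OgaVav-Cre mice and 177, 154 and 152 CPM in the wildtype mice (log2 fold change 0.05 ± 0.12, SE, and -0.01 on the RPKM scale).

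The hnRNP proteins lay on the other side of 0, with 15 of 22 loci higher in OgaVav-Cre and a median log2 fold change of 0.13 (13 of 20 and 0.13 without the combined loci). At an unadjusted p of 0.05, 2 of the 22 were higher (Hnrnpa0 and Hnrnpab) and 1 was lower (Hnrnph1). The shares were 4.38% higher and 6.27% lower over all loci tested. Among the 5182 loci expressed at or above the 5th percentile of the members, more were also higher (7.49%) than lower (4.69%). By direction alone, 11119 of all loci tested were higher and 10913 lower, with a median of 0.00. Whether the lean of the class is particular to hnRNP genes was not tested. Hnrnpab, an RNA-binding protein of the A/B type that shuttles between nucleus and cytoplasm, had the highest log2 fold change of all members. It had 605, 546 and 506 CPM in OgaVav-Cre mice 1 to 3 and 504, 344 and 345 CPM in wildtype mice 1 to 3. The groups did not overlap, but OgaVav-Cre 3 and wildtype 1 nearly met (log2 fold change 0.47 ± 0.18, SE, edgeR, unadjusted p = 0.0339, adjusted p = 0.446). Hnrnpa0, an intronless A/B-type gene whose product binds AU-rich elements, had 478, 450 and 416 CPM in the OgaVav-Cre mice and 389, 283 and 312 CPM in the wildtype mice. All OgaVav-Cre libraries were above all wildtype libraries (log2 fold change 0.45 ± 0.16, SE, edgeR, unadjusted p = 0.0211, adjusted p = 0.423). With the immunoglobulin share as a covariate the log2 fold change was 0.44 for both, and Hnrnpa0 alone stayed below an unadjusted 0.05. Without the pair of libraries highest in immunoglobulin Hnrnpa0 had 0.31 and Hnrnpab 0.32, neither at an unadjusted p below 0.05. Of the 6 fits without 1 mouse, 3 kept Hnrnpa0 and 2 kept Hnrnpab below an unadjusted 0.05.

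Hnrnph1, which binds runs of G near splice sites, had 554, 420 and 560 CPM in the OgaVav-Cre mice and 631, 697 and 694 CPM in the wildtype mice. Among the hnRNP loci kept by the rule it was the only one with every OgaVav-Cre library below every wildtype library (log2 fold change -0.40 ± 0.15, SE, edgeR, unadjusted p = 0.0335, adjusted p = 0.446), and 3 of 6 fits without 1 mouse kept it below 0.05. Its paralogs Hnrnph3 and Hnrnph2 had log2 fold changes of -0.33 ± 0.16 and -0.03 ± 0.13 (SE), both with overlapping genotypes. Hnrnpk, which binds C-rich sequences, and Hnrnpl, which binds CA repeats, were the other members with every OgaVav-Cre library above every wildtype library. Hnrnpk had 553 to 584 CPM against 409 to 507 CPM (log2 fold change 0.31 ± 0.13, SE, edgeR, unadjusted p = 0.0510), and Hnrnpl 304 to 314 CPM against 251 to 296 CPM (0.19 ± 0.12, SE).

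Among the remaining hnRNP loci, Hnrnpd (0.30), Hnrnpm (0.20), Hnrnpul2 (0.20), Hnrnpc (0.13), Hnrnpr (0.13), Hnrnpu (0.11) and Hnrnpul1 (0.06) had positive log2 fold changes, and Hnrpdl (-0.02), Hnrnpa2b1 (-0.02), Hnrpll (-0.06) and Hnrnpa3 (-0.12) negative ones. None of these was at an unadjusted p below 0.05. The combined loci Hnrnpm/March2 and Hnrnpu/AI503316 had 0.20 and 0.07, close to the single genes whose reads they share. Hnrnpa1, the best-studied repressor of exon inclusion and the hnRNP gene with the highest RPKM in wildtype, had 327, 340 and 266 CPM in the OgaVav-Cre mice and 295, 257 and 242 CPM in the wildtype mice. The genotypes overlapped (log2 fold change 0.23 ± 0.15, SE, edgeR, unadjusted p = 0.155). Hnrpll, known for its part in the alternative splicing of CD45 in T cells, was the hnRNP gene with the lowest RPKM, at 2.60 ± 0.571 in OgaVav-Cre and 2.85 ± 0.113 in wildtype (SD, n = 3). The sign of its small difference turned when OgaVav-Cre 3 was left out (0.13).

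Of the repeated symbols, Hnrnpf needs a caution. The longer locus, kept by the rule, lies at chr13:13954801-13986246 on the plus strand of mm9 and matched no GENCODE gene of that name there. It overlaps the locus Gm3625 on the opposite strand, and had a log2 fold change of 0.30 ± 0.17 (SE, edgeR, unadjusted p = 0.116). The shorter one at chr6:117850358-117875640, plus strand, matches the annotated Hnrnpf gene and had 0.40 ± 0.15 (SE, edgeR, unadjusted p = 0.0296, adjusted p = 0.444). How reads that match both were assigned is not given in the sources used here. The second Hnrnpa2b1 locus is a single exon on the strand opposite to the gene it overlaps, and had -0.48 against -0.02 for the gene itself. The second Hnrnpa1 locus, on chr9, had 0.33 ± 0.16 (SE) against 0.23 for the kept locus. The second Hnrnpa3 locus, on chr4, had 0.61 ± 0.31 (SE) against -0.12 for the kept locus. In both of these second loci every OgaVav-Cre library lay above every wildtype library.

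**Figure D4:**
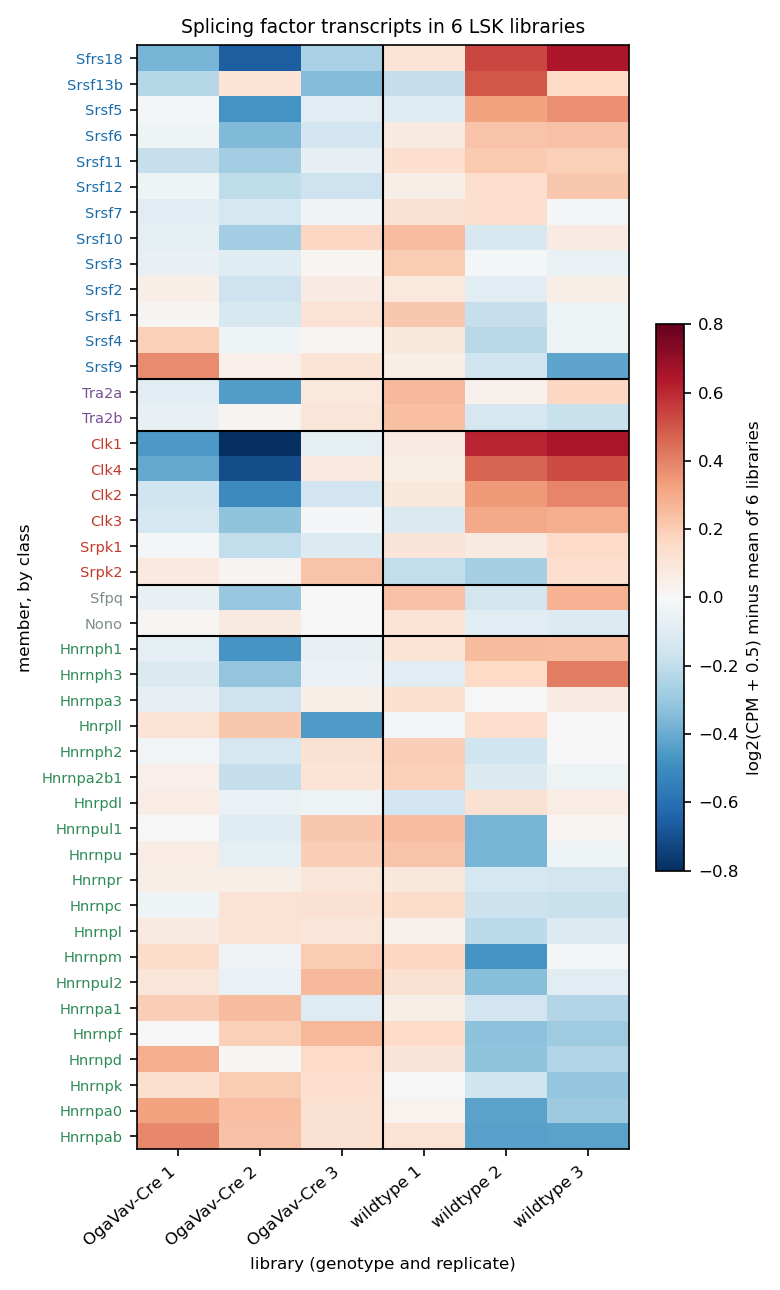
Level of each single-gene member in each library, as log2(CPM + 0.5) minus the mean of the 6 libraries (red above, blue below, color scale from -0.8 to 0.8), with members ordered within each class by log2 fold change and the black vertical line dividing the genotypes. Blue fields in OgaVav-Cre 2 are deepest for Clk1, Clk4 and Sfrs18, wildtype 2 and wildtype 3 are red for these same members, and wildtype 2 is blue for most hnRNP proteins.

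The libraries of a genotype were not alike. OgaVav-Cre 2 held the lowest value of 20 of the 43 single genes, and wildtype 2 the lowest of 13, mostly hnRNP proteins. Wildtype 1 held the highest of 13, and for Clk1, Clk2, Clk4 and Sfrs18 it was the wildtype library nearest to OgaVav-Cre. The 43 genes together took 1.07%, 1.05% and 1.24% of the counts in OgaVav-Cre mice 1 to 3 and 1.32%, 1.14% and 1.32% in wildtype mice 1 to 3. The reads of all SR protein loci, Sfrs18 and Srsf12 included, were divided by those of the 20 hnRNP genes without the combined loci. This gave 0.508, 0.469 and 0.509 in OgaVav-Cre and 0.551, 0.677 and 0.659 in wildtype. This ratio does not depend on the scaling between libraries, and its groups did not overlap. It was chosen after its values were seen and is given without a test. The median SD within a genotype was 0.176 on the log2 scale for the members and 0.172 for the 5088 loci at their level of expression, so the members were about as variable as other genes of that abundance.

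The annotation of the members shows how much of the counted sequence could be intronic. Of the 42 single genes that matched a GENCODE gene, 18 (42.9%) have an annotated transcript with a retained intron, beside 33.1% of the 13321 matched loci tested, and 16 (38.1%) have a transcript marked for nonsense-mediated decay, beside 15.9%. The counted length of a locus can exceed the sequence outside the introns of its coding transcripts, and the excess is a lower limit for the intron sequence that was counted. This limit reached 10% of the counted length in 28 of the 42 members (66.7%), beside 52.5% of matched loci, with medians of 35.0% and 12.1%. Among the 8 members lower at an unadjusted p below 0.05 it reached 10% in 7, all but Clk2, and their median was 44.1%. Among the 32 members at or above that p it reached 10% in 21 (65.6%), with a median of 35.0%. The 2 higher members, Hnrnpa0 and Hnrnpab, had limits of 0% and 5.75%. Hnrnpa0 has no introns, so its limit could only be 0% and makes no contrast with the lower members. The limit was 43.1% for Clk1 (3723 of 8639 bases), 76.8% for Clk4, 57.02% for Hnrnph1, 58.1% for Srsf12, 45.1% for Srsf11, 28.5% for Sfrs18 and 26.6% for Srsf6. Members with differences near 0 also had high limits, as for Hnrnpc at 76.0% and Tra2b at 61.7%. Counts per locus do not separate spliced from unspliced transcripts, so the part of introns in these differences was not tested.

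**Figure D5:**
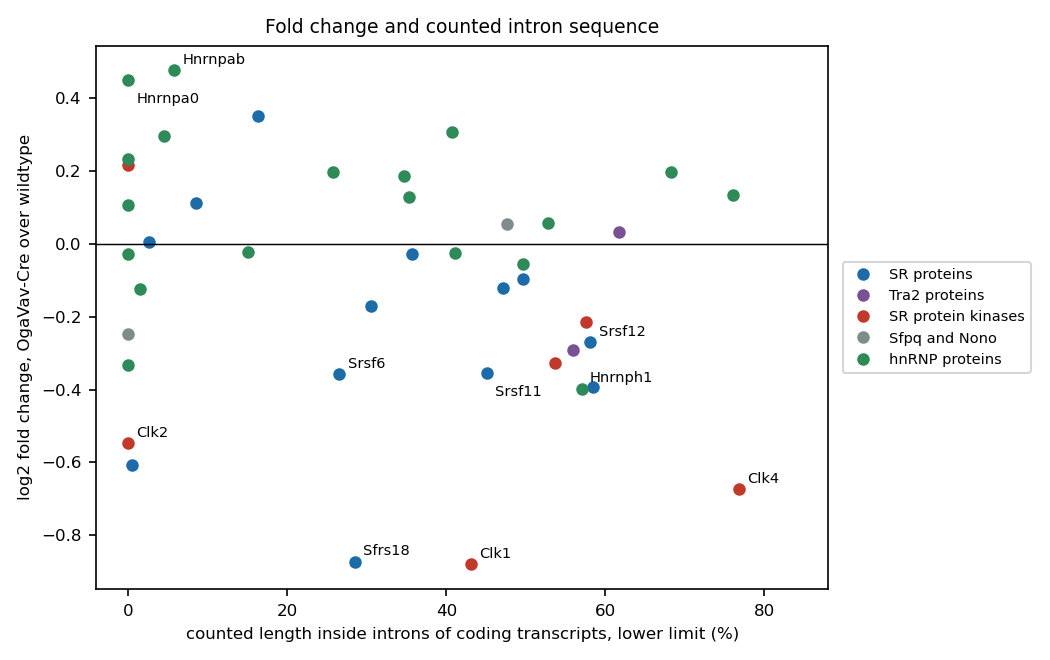
Log2 fold change (vertical axis, OgaVav-Cre over wildtype) against the lower limit of the counted length that lies in introns of coding transcripts (horizontal axis, percent) for the 42 members matched to GENCODE, colored by class, with names for members at an unadjusted p below 0.05. Most named members below 0 lie between 26.6% and 76.8%, and Clk2 lies at 0%. Both named members above 0 lie below 10%, of which Hnrnpa0 has no introns and could only lie at 0%.

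Other splicing genes were taken from lists written from general knowledge. The counts below at an unadjusted p of 0.05 stand beside 6.27% lower and 4.38% higher over all loci tested. Among the 5182 loci expressed at or above the 5th percentile of the members these shares were 4.69% and 7.49%. No list was tested as a set. Of 48 core spliceosome genes, 35 had a higher mean in OgaVav-Cre (median log2 fold change 0.17), with 5 higher and 1 lower at an unadjusted p of 0.05. Snrpf, an Sm protein of the spliceosomal snRNPs, had 34.2, 29.6 and 32.5 CPM in the OgaVav-Cre mice and 18.2, 13.0 and 14.8 CPM in the wildtype mice, without overlap (log2 fold change 1.07 ± 0.17, SE, edgeR, adjusted p = 0.210). Srrm2, a large speckle scaffold rich in arginine and serine, was the lower one, at -0.34 ± 0.13 (SE, edgeR, unadjusted p = 0.0320, adjusted p = 0.445). Of 22 hnRNP-type genes under other symbols 11 were higher and 11 lower, with 3 lower and 0 higher at an unadjusted 0.05 in edgeR. Among these Rbmx (hnRNP G) had 73.2, 63.6 and 77.9 CPM against 98.5, 106 and 109 CPM (log2 fold change -0.55 ± 0.12, SE, edgeR, adjusted p = 0.382), and Raly, the higher gene with the smallest p, had 0.34 ± 0.16 (SE, edgeR, adjusted p = 0.490).

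Of 36 other regulators of alternative splicing 30 were tested, and 22 of these had a lower mean in OgaVav-Cre (median -0.06), with 6 lower and 1 higher at an unadjusted 0.05. Tia1, which binds U-rich sequences downstream of 5′ splice sites, had 174, 162 and 169 CPM in the OgaVav-Cre mice and 234, 279 and 262 CPM in the wildtype mice. The groups lay far apart relative to their spread (log2 fold change -0.62 ± 0.12, SE, edgeR, adjusted p = 0.299). Khdrbs1 (Sam68) was the higher one, at 0.31 ± 0.13 (SE, edgeR, adjusted p = 0.460). Of 14 genes of nonsense-mediated decay 10 were higher and 4 lower, with 1 higher at an unadjusted 0.05, Eif4a3 of the exon junction complex (0.35 ± 0.14, SE, edgeR, adjusted p = 0.447). The lower gene with the smallest p was Upf3b (-0.23 ± 0.15, SE, edgeR, unadjusted p = 0.167). No gene of these lists passed the adjusted cutoff in edgeR.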

How the data were processed

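The authors sorted at least 20000 LSK cells per mouse, prepared poly(A) libraries with a NEBNext Ultra kit and sequenced single-end reads of 50 bases. CASAVA 1.8.2 and mm9 are named in the submitters' processing notes. Versions of the aligner, the counting and the annotation are not given in the sources used here. The deposited table holds raw counts of reads per locus and the RPKM the authors derived from them. Its normalized expression columns and the authors' own fold changes and p-values were not used.

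Genotypes and replicate numbers came from the labels. The members and gene lists were chosen with earlier results of these data known. Counts of all loci were fitted with genotype as the only term in edgeR 4.0.16 (filterByExpr, TMM, quasi-likelihood test) in R 4.3.3, and p-values were Benjamini-Hochberg adjusted over all 22032 loci tested. The quasi-likelihood fit was tested on simulated data that gave every locus the same dispersion. Differences in variability between loci and in immunoglobulin share between libraries were not simulated, so it does not gauge the p-values given here. Alternatives were RLE scaling, no filter or a minimum of 10 reads per library, DESeq2 1.42.0, limma-voom and limma-trend on log2(RPKM + 0.1) or log2(RPKM + 1) (limma 3.58.1), a replicate block, the immunoglobulin share as a covariate, and leaving out each library. Each library is 1 mouse, so p-values set the difference between the genotypes against the spread between mice of the same genotype.

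Members named with values were those with an unadjusted p below 0.05, the highest and lowest of each class by RPKM, all CLK, SRPK and Tra2 genes with Sfpq and Nono, and the largest differences. Other members were named for completeness after their values were seen. Of each further list, the gene with the smallest p in each direction was named. Gene structures and exon sequences came from GENCODE vM1 on the same genome build as mm9, and current symbols from RefSeq.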

Additional observations from a re-analysis of the deposited data

How the results depend on the processing

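No member passed both cutoffs in edgeR or under any alternative, DESeq2 included, whose 2 adjusted calls had log2 fold changes within 1. The count of 10 members at an unadjusted p below 0.05 ranged from 3 to 17 when 1 mouse was left out, and was 2 without the library highest in immunoglobulin of each genotype, an alternative added after seeing the data that also leaves 2 mice per genotype. Under the other alternatives it was 9 to 12. The labels do not state whether the replicate numbers pair the mice. Correlations of deviations between mice of the same number were -0.09, 0.33 and 0.41, and those between mice of different numbers ran from -0.47 to 0.28. With 3 mice per genotype these values cannot decide whether the mice were paired. With the replicate block the count was 12 (12.4% of all loci), with 7 lower (6.61%) and 5 higher (5.75%). Of 335 alternative fits of 21 named members, 324 kept the direction. Those that turned all concerned differences near 0: Hnrpll without OgaVav-Cre 3 or wildtype 2 (range without 1 mouse -0.19 to 0.13, with 0.00047 at wildtype 2), Srsf2 without OgaVav-Cre 2 or wildtype 1 (0.047 and 0.0094, range without 1 mouse -0.071 to 0.047), Nono on both RPKM scales (-0.011 and -0.011), and Tra2b on both RPKM scales (-0.025 and -0.025) and without OgaVav-Cre 3, wildtype 2 or wildtype 3 (-0.0059, -0.019 and -0.046, range without 1 mouse -0.046 to 0.18). The median of the members stayed between -0.09 and 0.07. The median of all loci was -0.06 with log2(RPKM + 0.1) and -0.04 with log2(RPKM + 1). Depth limited the precision most for Srsf13b, at 9 to 19 reads per library.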
